A study of Mus musculus with 144 samples.

Results

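The results concern 129 probes of middle abundance on a microRNA (miRNA) array, measured in the blood of mice. The mouse probes of the deposited table were ranked by their median background-subtracted intensity over 144 arrays. Ranks 61 to 200 were taken, and 11 probes of those ranks that earlier results on these data had named were left out, so that 129 of 1262 mouse probes remained. The level of a probe therefore chose the members, and the removal took out the probes known to move most between months. It also took out the only 2 probes called with the 1.5-fold limit in the exposure comparisons below. Levels and counts of members that moved are given as descriptions for that reason.

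The mice were male C57BL/J6, 7 weeks old when obtained. They had received 1, 10, 40 or 80 µg of multi-walled carbon nanotubes (MWCNT), 120 µg of crocidolite asbestos as the positive control, or the dispersion medium alone (DM) as the negative control. Blood was taken at month 1, 6 or 12 after exposure, with 8 mice in each of the 18 groups and 1 array per mouse. No group was left untreated, and age and time since exposure cannot be told apart.

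MicroRNAs are short RNAs that guide the silencing complex to matching messenger RNAs and lower their translation or stability. In whole blood they come mostly from red cells, platelets and white cells, with a smaller share in plasma carried by vesicles and proteins. A change in whole blood can therefore follow a change in the mixture of cells as well as in the cells themselves, and in these samples fewer cells of a type and less RNA per cell cannot be told apart. Which miRNA a probe identifier stands for is not given in the sources used here, so probes are named by identifier, without sequence or role, and blood cell markers could not be looked up.

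The members spanned median intensities of 668 to 14688 scanner units, with a median of 2562. At the upper limit, probe 3236 (rank 61) stood at 14688 and probe ORB_1210464 (rank 60, not a member) at 14810. At the lower limit, probe ORB_1210652 (rank 200) stood at 668 and probe ORB_0409083 (rank 201, not a member) at 621. The limits thus cut through a continuous range of intensity. All 129 members were among the 742 probes kept because every array of some group of 8 had them above the detection threshold, and 128 were above threshold on all 144 arrays. Probe 2140 was above it on 143. Levels below are quantile-normalized log2 intensities, and errors are the SD over mice or the standard error (SE) of a fitted difference.

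A small number of arrays stood apart from the rest and bear on every result that follows. For each mouse the log2 levels of 19 probes were averaged that varied together in month 1 mice, the group called cluster 1 below. Over all mice the median of this average was 11.90. In 10 mice it was more than 1 log2 unit lower, at 9.04 to 10.63, while the lowest of the other 134 mice was at 10.94. The gap from the median was 2.85 log2 units (7.23-fold) in the lowest of the 10 and 1.26 (2.40-fold) in the highest. These 10 mice belonged to 7 groups, with arrays on 9 slides and 5 scan days. There were 4 at month 1, 5 at month 6 and 1 at month 12. Both month 1 MWCNT groups of higher dose held 2, as did the month 6 DM group, and the month 6 groups of 1 µg MWCNT, 10 µg MWCNT and crocidolite and the month 12 DM group held 1 each. The same 10 arrays were the lowest in the deposited table, which was normalized in another way, with gaps of 1.29 to 2.98.

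On those 10 arrays between 15 and 35 of the 129 members lay more than 1 log2 unit below their median over all mice, and between 4 and 41 lay as far above it. In the other 134 mice the median number that far below was 0 and the highest 27. Probes outside the members moved on the same arrays, with 4 to 16 of the 60 brightest probes and 12 to 30 of the 200 probes of ranks 201 to 400 more than 1 unit lower. Brightness before normalization ran from the dimmest of the 144 arrays to the 75th from the dimmest, and 4 of the 10 were outside the dimmest 20. Over the 144 mice the mean deviation of cluster 1 and array brightness had a Pearson r of 0.28 (two-sided permutation test, p = 0.00072, adjusted p = 0.00072 over the 2 relations computed, the other with the first principal component) and a Spearman rho of 0.08 (permutation p = 0.34, adjusted p = 0.34). Leaving out the 2 arrays farthest from the median brightness gave r of 0.24. Within the 6 scan days of at least 6 arrays r ran from -0.19 to 0.61 and was positive in 5, and without the 10 arrays it was -0.10 (rho -0.06), so that the relation rested on those arrays. The part of the cells in the sample in these profiles was not tested. Some results are given with and without the 10 arrays, and the rest with all arrays only. The 10 were picked by the members' own values, so that leaving them out lowers the spread and the correlations by construction.

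**Figure D1:**
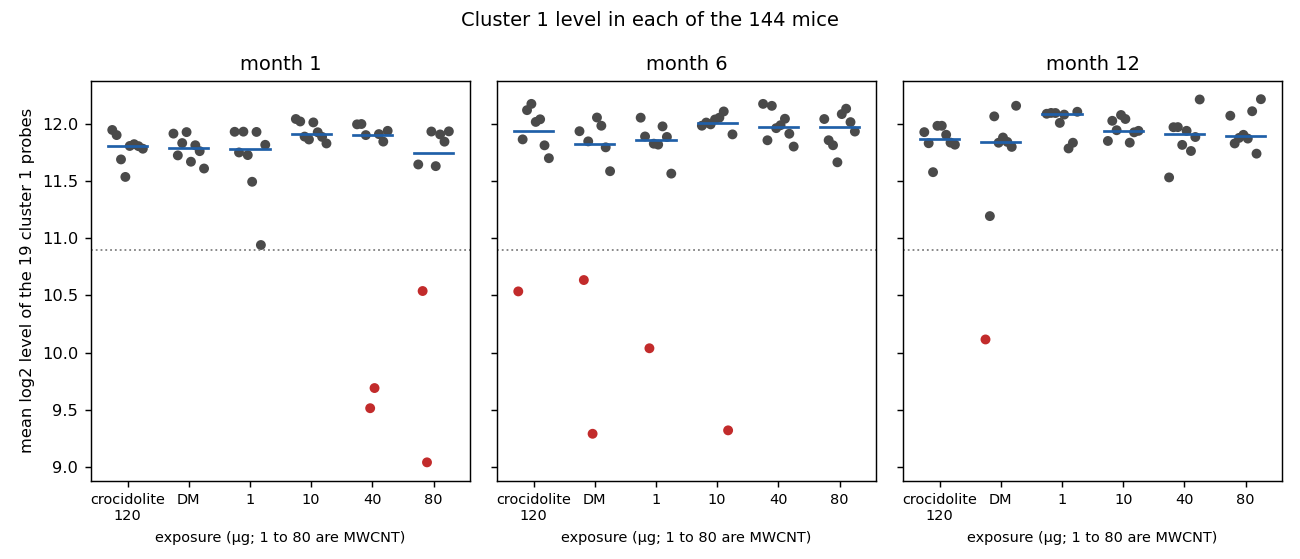
Mean log2 level of the 19 cluster 1 probes (vertical axis) in every mouse, by exposure and month. Blue lines mark group medians, the dotted line lies 1 log2 unit below the median of all mice, and the 10 mice under it (9.04 to 10.63) are in red.

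The members varied between mice well beyond the error of spotting. The SD between mice of 1 group, pooled over the 18 groups, had a median of 0.41 log2 units over the 129 members and ran from 0.21 to 1.31. Repeated spots of a probe on 1 array differed by a median SD of 0.16, which gives the mean of 3 spots an error of 0.10. This error made up a median of 5.77% and at most 34.2% of a member's variance between mice. An SD over 0.5 was found for 38 members and over 1 for 4. For reference, the median SD was 0.26 for the 60 brightest probes, 0.31 for ranks 201 to 400 and 0.22 for all 742 probes kept. Leaving out the 10 arrays gave medians of 0.32 for the members, 0.20 for the 60 brightest, 0.27 for ranks 201 to 400 and 0.20 for all probes kept.

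**Figure D2:**
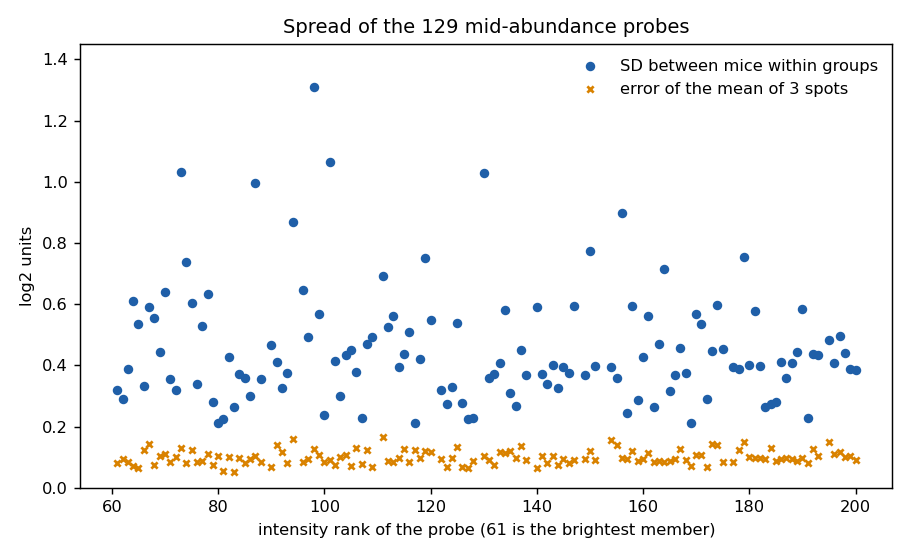
SD between mice within groups (circles) and error of the mean of 3 spots (crosses) of each of the 129 members, in log2 units, against the probe's intensity rank. Every circle lies above its cross, and 4 probes exceed an SD of 1.

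The most variable member was probe 2140. Over 144 mice its lowest, median and highest log2 levels were 6.43, 12.24 and 13.75, and its background-subtracted intensity went from 24.7 to 21139 units. Its SD was 1.31, and 0.79 without the 10 arrays. Probe 1443 followed with an SD of 1.06, and 0.59 without them, around log2 levels of 7.95, 12.14 and 13.07 (lowest, median, highest). For both probes the long tail was downward and most mice lay close to the median. Both belonged to cluster 1.

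The least variable members were ORB1015 and 2909. Probe ORB1015 had its lowest, median and highest log2 levels at 9.50, 10.23 and 10.91, and probe 2909 had them at 10.98, 11.63 and 12.34. Each had an SD of 0.21, or 0.21 and 0.20 without the 10 arrays. Their whole range over 144 mice, 1.42 and 1.36 log2 units, was thus close to the SD of probe 2140.

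With all arrays, which members varied most was much the same in separate mice. Across the 129 members, the SD in month 6 and 12 mice and the SD in month 1 mice had a Pearson r of 0.94 and a Spearman rho of 0.91. The 33 members with the lowest SD in month 1 mice had a median SD of 0.27 in the later mice and 0.29 in month 1 mice. The 32 with the highest had 0.60 in the later mice and 0.70 in month 1 mice. Probes are not independent replicates, and the same probe brightness and array design underlie both sets. Both sets also held arrays that stood apart, 4 at month 1, 5 at month 6 and 1 at month 12. Their part in this agreement was not tested.

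Spread had a wider range over groups of mice than over months. The median SD of the members was 0.42 at month 1, 0.45 at month 6 and 0.34 at month 12 (48 mice each). By group it was lowest for 1 µg MWCNT at month 12, at 0.26, and highest for 80 µg MWCNT at month 1, at 0.59. The 5 widest groups were 80 µg MWCNT and 40 µg MWCNT at month 1 (0.59 and 0.54), 10 µg MWCNT and DM at month 6 (0.51 and 0.57), and DM at month 12 (0.44). All 5 held at least 1 of the 10 arrays. Without those arrays the same 5 groups had medians of 0.40, 0.33, 0.29, 0.30 and 0.31, and the 18 groups ranged from 0.26 to 0.40.

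The members varied together in blocks. Correlations were taken between the deviations of 2 probes from their group means. Over all 144 mice the 8256 pairs had a median r near 0 (-0.0046), with a lowest of -0.84 and a highest of 0.98, and 11.6% lay beyond 0.6 in either direction. Among the pairs of the 60 brightest probes 5.93% lay that far out, and among those of ranks 201 to 400 it was 5.71%. The shares were, without the 10 arrays, 4.41%, 1.98% and 2.67%. The pattern of pairs repeated across mice: r in month 6 and 12 mice and r in month 1 mice correlated at 0.90 across the 8256 pairs, and at 0.78 without the 10 arrays. Pairs share probes, arrays and normalization, so no test is attached to these values.

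The closest pair in month 1 mice was ORB_0908030 and ORB_0608032, with r of 0.98 both in the 96 later mice and in the 48 month 1 mice. In the later mice r was again 0.98 without the 10 arrays. Next came ORB_0608043 and ORB_0608045, with r of 0.93 in the later mice, 0.89 there without the 10 arrays, and 0.97 in month 1 mice. Whether the 2 probes of a pair target the same or related miRNAs could not be read from the files. The most opposed pair was 2291 and ORB_1112035, with r of -0.71 in the later mice and -0.85 in month 1 mice. That opposition was smaller without the 10 arrays, at -0.50 in the later mice and -0.56 in month 1 mice.

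A tree built from the 48 month 1 mice alone, with average linkage and a limit of 0.4 in 1 minus r, gave 8 clusters of 5 or more probes that held 83 of the 129 members. Their sizes were 19, 17, 12, 9, 8, 7, 6 and 5. The mean r within these clusters was 0.71 in the 96 later mice, which had no part in building them, against -0.04 for all other pairs in those mice. In the month 1 mice that built them it was 0.77. With the 10 arrays left out and the clusters kept as they were, the mean within clusters was 0.44. Without them a tree rebuilt in the remaining month 1 mice had 6 clusters with 61 members and a mean r of 0.61 in the later mice.

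The clusters differed in how far r changed without the arrays that stood apart. Cluster 1 had a mean r of 0.70 in the later mice, and 0.20 without those arrays. Its most central members were 3009 and 1847. Cluster 3, centred on ORB_1210472 and ORB_1112035, had 0.63 and 0.36 without them, and cluster 4, centred on 3267 and 3054, had 0.61 and 0.41. Cluster 2 (17 probes, 16 with identifiers that start with ORB, centred on ORB_0608002 and ORB_0409060) had a mean r of 0.80, and 0.67 without them. Cluster 6 (7 probes, centred on ORB_0908030 and ORB_0608032) had 0.79 and 0.82, and cluster 8 (5 probes, centred on ORB_0511538 and ORB_0608009) had 0.82 both ways. Cluster 5, centred on 1423 and 1315, had 0.62 and 0.59, and cluster 7, centred on 2985 and ORB_0511511, had 0.48 and 0.54. The 10 arrays were picked by the cluster 1 mean, so the fall of r in cluster 1 was in part built in. The means of clusters 2, 3 and 4 had r of -0.74, -0.83 and 0.69 with that of cluster 1 in the later mice. Their falls were therefore in part built in too, and the sizes of the falls cannot be set against each other. With rank correlation over all later mice, cluster 1 had a mean of 0.45, and clusters 2, 6 and 8 had 0.69, 0.80 and 0.80.

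Whole clusters also moved against each other in the normalized levels. Quantile normalization gives all arrays the same distribution, so lower levels of some probes go with higher levels of others. Its part in these values was not tested. In the 96 later mice the mean deviation of cluster 1 had r of -0.74 with that of cluster 2 and -0.83 with that of cluster 3, and clusters 2 and 3 had r of 0.74. Without the 10 arrays cluster 1 had r of -0.46 with cluster 2 and -0.33 with cluster 3, and clusters 2 and 3 had r of 0.44. Other pairs of clusters were closer without those arrays. Clusters 4 and 5 had r of 0.82 then, and 0.00 over all later mice, and clusters 3 and 7 had 0.71 then and 0.57 over all. The first principal component of the deviations took 42.5% of their variance, and 25.5% without the 10 arrays. Slides accounted for 28.7% of that component over all arrays, where 37 slide terms would take 25.9% of a component unrelated to them. Scan day accounted for 3.91%, against 4.20% for its 6 terms.

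**Figure D3:**
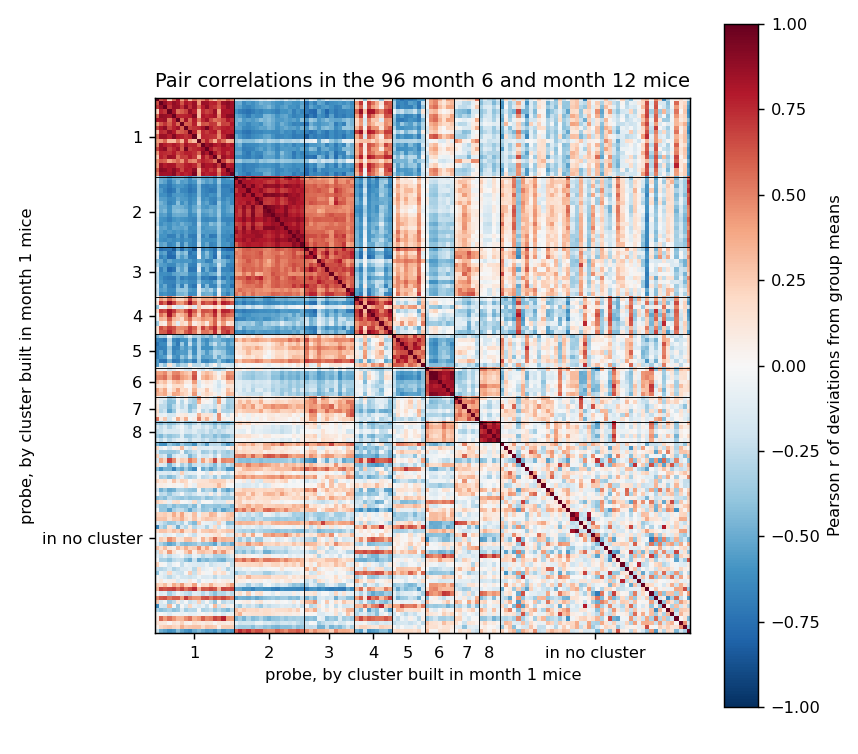
Pearson r between the deviations of each 2 members from their group means, in the 96 month 6 and month 12 mice, from -1 (blue) to 1 (red). Probes on both axes are ordered by the 8 clusters built in month 1 mice, followed by those in no cluster, and the red blocks on the diagonal are the clusters, with a mean r of 0.71.

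Small shifts between months were common among the members and shifts of 1.5-fold were rare. For a call, a probe needed an unadjusted p under 0.05, an adjusted p (Benjamini-Hochberg, over all 742 probes kept) under 0.10, and a fold of at least 1.5. In the mean of the 6 exposures, month 12 against month 1, 1 of 129 members was called, where 1.75% of all 742 probes were. With no limit on the fold, 65 members passed (50.4%, 27 higher and 38 lower), where 34.6% of all probes passed. Leaving out the 10 arrays gave 63 (28 higher, 35 lower), where 35.4% of all probes passed. The median size of the 65 shifts was 0.30 log2 units. Among the 60 brightest probes 23.3% passed and among ranks 201 to 400 it was 42.0%. The probes known to move most were removed by the choice of members, so the counts are not a result about middle abundance.

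Month 6 against month 1 gave 0 members called, where 0.404% of all probes were, and 67 (31 higher, 36 lower) with no limit on the fold, where 36.4% of all probes passed. Leaving out the 10 arrays gave 75 members, where 40.8% of all probes passed. The share of all probes depended on the scaling. Under the 3 other scalings 74 or 75 of the 129 members passed, where 67.3% to 73.9% of all probes did, so the members' share was then below that of all probes. An unadjusted p under 0.05 was found for 72 members (55.8%, against 39.2% of all probes). Month 12 against month 6 gave 0 called, where 0.135% of all probes were, and 16 (7 higher, 9 lower) with no limit on the fold, where 17.3% of all probes passed. That count was 31 (15 higher, 16 lower) without the 10 arrays, where 23.2% of all probes passed, and 30 to 33 under the 3 other scalings, where 52.2% to 63.1% passed. The comparisons with month 1 share the month 1 mice. The p-values of the month comparisons are from limma. They set a difference against the spread between mice within groups, pooled over the 18 groups. With 1 array per mouse, that spread includes variation between arrays.

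The direction of the shifts was counted within scan days and within exposures. These are parts of the same mice that picked the members, so agreement was in part fixed by the choice. Of the 65 members, 43 moved in the same direction on all 5 scan days with arrays of both months, and 64 on at least 4. In 46 the direction was the same in all 6 exposures, and in 64 in at least 5. The 67 members that shifted at month 6 were less uniform by exposure, with 28 in the same direction in all 6 and 53 in at least 5, and 41 in the same direction on all 5 scan days. The difference between these shares was not tested.

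Probe ORB_1112352, a member of cluster 1, was the member called higher at month 12. Its lowest, median and highest log2 levels were 10.83, 12.46 and 13.18 in the 48 month 12 mice, and 9.19, 11.96 and 12.72 in the 48 month 1 mice. The ranges overlapped, and 42 of 48 month 12 mice lay above the month 1 median. Its mean was 12.43 ± 0.43 at month 12 and 11.78 ± 0.74 at month 1 (SD, n = 48 each), a log2 fold change of 0.66 ± 0.13 (SE, limma adjusted p = 2.8e-05). Without the 10 arrays it was 0.49 ± 0.08 (adjusted p = 7.5e-07), under the 1.5-fold limit. It was also under that limit without the 1 µg MWCNT groups (0.58) and without scan day 3 (0.57).

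Probe 3261r was the other member named as higher, with an adjusted p far below the threshold and a fold just under the limit. It stood at 12.50, 13.22 and 13.69 (lowest, median, highest) at month 12, and at 12.11, 12.52 and 13.39 at month 1. All but 1 of the 48 month 12 mice lay above the month 1 median. The log2 fold change was 0.56 ± 0.06 (SE, limma adjusted p = 9.9e-14), positive on all 5 scan days and in all 6 exposures (0.36 to 0.74). Without the 10 arrays it was 0.60 ± 0.06 and past the 1.5-fold limit. Its month 6 mean was 12.82, and month 12 was higher than month 6 by 0.34 ± 0.06 (adjusted p = 2.0e-05).

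On the lower side, probe ORB_0511571 stood at 11.87, 13.07 and 13.82 (lowest, median, highest) at month 12, and at 13.18, 13.63 and 14.36 at month 1. In 47 of 48 month 12 mice it lay below the month 1 median. The log2 fold change was -0.58 ± 0.07 (SE, limma adjusted p = 2.4e-11), negative in all 6 exposures (-0.69 to -0.50), and at month 6 it was -0.44 ± 0.07 (adjusted p = 5.1e-07). Probe ORB1189 stood at 9.37, 9.75 and 10.38 at month 12, and at 9.59, 10.17 and 10.91 at month 1. Its log2 fold change was -0.44 ± 0.06 (SE, limma adjusted p = 6.7e-11), with 43 of 48 month 12 mice below the month 1 median. Neither reached the 1.5-fold limit. Leaving out the 10 arrays gave -0.56 for ORB_0511571 and -0.43 for ORB1189.

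**Figure D4:**
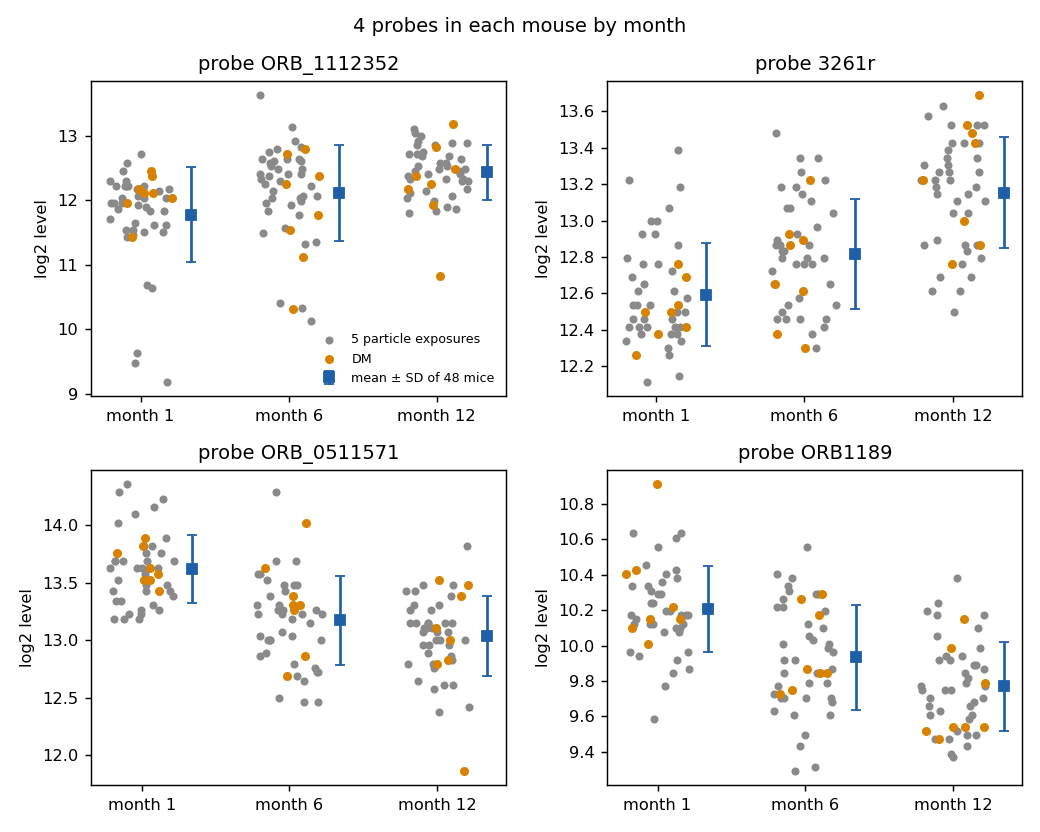
Log2 level of 4 members in every mouse at months 1, 6 and 12 (DM mice in orange, the 5 particle exposures in grey), with the mean and SD of the 48 mice of each month in blue. ORB_1112352 and 3261r had month 12 means 0.66 and 0.56 above month 1, and ORB_0511571 and ORB1189 had means 0.58 and 0.44 below it.

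At month 6 the members named as higher were ORB_1008002 and 2757. Probe ORB_1008002 averaged 11.28 ± 0.29 at month 6 and 10.83 ± 0.38 at month 1 (SD, n = 48 each), with 46 of 48 month 6 mice above the month 1 median and a log2 fold change of 0.44 ± 0.06 (SE, limma adjusted p = 9.4e-09). For probe 2757 the log2 fold change was 0.28 ± 0.05 (SE, limma adjusted p = 5.1e-07). The lower members were ORB_0511571, given above, and ORB_1210430, which averaged 12.77 ± 0.27 at month 6 and 13.17 ± 0.28 at month 1, a log2 fold change of -0.40 ± 0.05 (SE, limma adjusted p = 2.6e-09). All 4 kept their direction in each of the 6 exposures and on all 5 scan days.

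Between months 6 and 12 the number of members that shifted depended on the arrays and the scaling, as given above. In month 12 against month 6, ORB_0409028 was higher by 0.28 ± 0.07 and 3261r by the 0.34 given above. Probes 2894 and 3105 were lower, with log2 fold changes of -0.44 ± 0.10 and -0.40 ± 0.09 (SE, limma adjusted p = 0.00048 for both). Each of those 2 was lower on 2 of the 3 scan days with arrays of both months, and lower in all 6 exposures.

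Cluster 2 moved in 1 direction as a whole. All 17 of its probes were lower at month 12 than at month 1 at an adjusted p under 0.10, with a median log2 fold change of -0.28 and a range of -0.46 to -0.20, where 19.7% of all 742 probes were lower. At month 6, 13 of the 17 were lower at that threshold, where 19.8% of all probes were, with a median of -0.22. With the 10 arrays left out the counts were 17 at month 12 and 15 at month 6, with medians of -0.25 and -0.24. These probes varied together between mice, so the 17 are not 17 separate observations.

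In cluster 1, 18 of 19 probes had a positive log2 fold change at month 12, with a median of 0.16, and 6 were higher at an adjusted p under 0.10, where 15% of all probes were. Month 12 held 1 of the arrays that stood apart and month 1 held 4. Without them the median was 0.01, with 6 probes higher and 1 lower. At month 6, which held 5 of those arrays, the cluster 1 median was 0.06, with 4 probes higher, where 16.6% of all probes were. Without the arrays it was 0.08, with 7 higher and 3 lower. Cluster 3 was mixed, with 2 probes higher and 5 lower at month 12, and 2 and 3 without the arrays. Cluster 4 had 2 higher at month 12 and 4 at month 6, and 2 and 6 without the arrays. Of the 5 probes of cluster 8, 1 was higher and 2 lower at month 12, and 3 were lower at month 6. Without the arrays 1 was higher and 1 lower at month 12, and 2 were lower at month 6. In clusters 5, 6 and 7 at most 2 probes passed in either comparison.

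**Figure D5:**
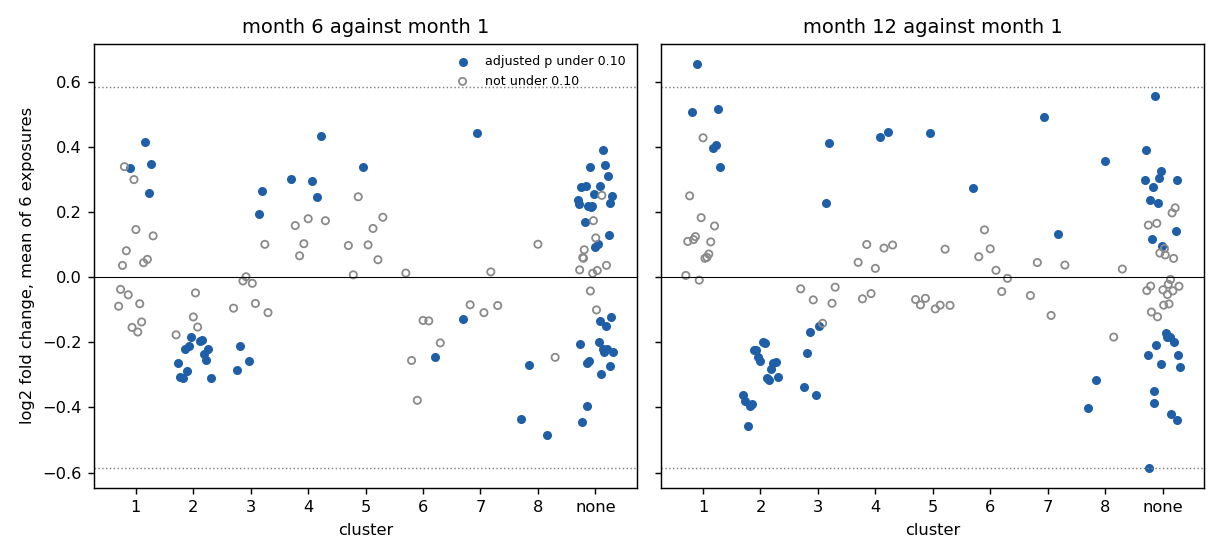
Log2 fold change of each member in the mean of the 6 exposures, month 6 against month 1 (left) and month 12 against month 1 (right), by cluster. Filled circles have an adjusted p under 0.10, and the dotted lines mark 1.5-fold. The 17 probes of cluster 2 all lie below 0 in both panels.

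In DM mice alone, which had no particles, more members passed the 1.5-fold limit. The median SE of a member's month difference was 0.20 log2 units there, against 0.08 in the mean of 6 exposures. Counts with the fold limit are therefore not comparable between the 2. Month 12 against month 1, with 8 mice each, gave 7 members called (4 higher, 3 lower), where 2.96% of all 742 probes were, and 12 with no limit on the fold, where 6.2% passed. Probe 3261r stood at 12.76, 13.33 and 13.69 (lowest, median, highest) in month 12 DM mice and at 12.26, 12.50 and 12.76 in month 1 DM mice. The groups met at 1 value, and the log2 fold change was 0.74 ± 0.15 (SE, limma adjusted p = 0.00025). Probe ORB_1008002 was higher by 0.73 ± 0.15 (SE, limma adjusted p = 0.00046), at 11.09, 11.41 and 12.00 at month 12 and 10.03, 10.76 and 11.44 at month 1. Probe ORB_1210497 did not overlap, at 9.79, 10.21 and 10.38 at month 12 and 10.40, 10.64 and 11.17 at month 1, with a log2 fold change of -0.62 ± 0.13 (SE, limma adjusted p = 0.00052). Probe ORB_0511571 was lower by a log2 fold change of -0.64 ± 0.18 (SE, limma adjusted p = 0.011), with all 8 month 12 mice below the month 1 median. Leaving out the 10 arrays gave 9 members called, and 23 (12 higher, 11 lower) with no limit on the fold, in place of 12 (9 higher, 3 lower), where 10.4% of all probes passed. With the fold limit, 4 members were called without mouse 2 of month 12, in place of 7. For the counts of 9 and 4 the share of all probes was not computed, so they are not results about the members.

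Month 6 against month 1 in DM mice gave 5 members called (4 higher, 1 lower), where 3.1% of all probes were, and 12 with no limit on the fold, where 13.5% passed. With no fold limit the count was 13 without the 10 arrays, where 6.47% passed, and 27 to 31 under the 3 other scalings, where 47.6% to 59.4% did. The count of 5 with the fold limit changed when single mice were left out. It was 2 without mouse 4 of month 6, 3 without mouse 8 of month 6, 3 without mouse 6 of month 1, 8 without mouse 5 and 10 without mouse 6 of month 6. It was 3 without the 10 arrays, of which mouse 2 and mouse 4 of month 6 DM are 2. The share of all probes was not computed for these left-out counts, so they are not results about the members. Probe 3280 stood at 10.64, 10.83 and 12.03 (lowest, median, highest) at month 6 and 10.03, 10.37 and 10.48 at month 1, without overlap, and its log2 fold change was 0.71 ± 0.19 (SE, limma adjusted p = 0.015). Probe ORB_1112035 was higher by 0.69 ± 0.20 (SE, limma adjusted p = 0.031). Without the 10 arrays these were 0.47 ± 0.14 (adjusted p = 0.042) and 0.43 ± 0.17 (adjusted p = 0.12), both under the 1.5-fold limit. Probe ORB_1112342 was called lower at -0.73 ± 0.28 (SE, limma adjusted p = 0.089), and at -0.94 ± 0.27 (adjusted p = 0.033) without the 10 arrays. Month 12 against month 6 in DM mice called 0 members, where 0.27% of all probes were called, and 1 with no limit on the fold, where 1.62% passed.

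The month shift in mice given particles was set directly against that in DM mice. The difference was called for 0 members, and for 0 of all 742 probes, at month 12, at month 6 and between them. At month 12 against month 1 the smallest adjusted p was 0.70, and 8 members had an unadjusted p under 0.05 (6.20%, against 7.01% of all probes). At month 6 against month 1 the smallest adjusted p of a member was 0.29, and 14 members had an unadjusted p under 0.05 (10.9%, against 15% of all probes). At month 12 against month 6 there was 1 such member (0.775%, against 3.37% of all probes). The median SE of this difference was 0.22 log2 units, so differences of that size could not be detected.

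Exposure was compared with DM of the same month in 15 comparisons, 5 exposures at each of 3 months. No member was called in any of the 15 by limma, with or without the 1.5-fold limit. With the limit, 0.27% of all 742 probes were called for 80 µg MWCNT at month 6 and 0 in the other comparisons. The 2 probes called there were among the 11 left out of the members. The 0 members called with the limit in that comparison therefore followed from the choice of members. Without that limit 3.37% of all probes passed for 80 µg MWCNT at month 6, 0.27% for crocidolite at month 6 and 0.135% for 40 µg MWCNT at month 12. The number of members with an unadjusted p under 0.05 ran from 0 (1 µg MWCNT, month 6) to 27 (40 µg MWCNT, month 6), which was 20.9% of the members, against 16.6% of all probes. The next were 23 (80 µg MWCNT) and 15 (crocidolite), both at month 6, where the DM group held 2 of the 10 arrays, and 17 (40 µg MWCNT) at month 1, where that exposed group held 2. These were 17.8%, 11.6% and 13.2% of the members, against 20.2%, 15% and 10.6% of all probes. Testing each pair of groups with their own spread alone gave 6, 3, 3 and 8 for these 4 comparisons and at most 13 (crocidolite, month 12), and called 0 members.

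The smallest p of an exposed group was that of probe 1106 at 40 µg MWCNT in month 1. It stood at 10.27, 10.66 and 12.58 (lowest, median, highest) in the 8 exposed mice and at 9.25, 10.10 and 11.06 in the 8 DM mice, so the groups overlapped. Its log2 fold change was 0.89 ± 0.28 (SE, limma adjusted p = 0.19). Probe ORB_0511544 followed, for crocidolite at month 12, at 12.58, 12.72 and 12.96 in exposed mice and 12.83, 13.17 and 13.89 in DM mice, with a log2 fold change of -0.53 ± 0.17 (SE, limma adjusted p = 0.62). A change of exposure effects between months was called for 0 members and 0 of 742 probes, with 3 members at an unadjusted p under 0.05 and a smallest adjusted p of 0.84. The 2 members of smallest p there were ORB_1210514 and 1141.

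The arrays as a whole correlated at 0.89 to 1.00, with a median of 0.99, and between 486 and 1171 of the 1262 mouse probes were above threshold on an array. Slides numbered 38 and scan days 7, and month 1 arrays were scanned on 7 days and those of months 6 and 12 on 5 each. Mean log2 brightness before normalization was 8.70 ± 0.22 at month 1, 8.54 ± 0.23 at month 6 and 8.70 ± 0.20 at month 12 (SD, n = 48 each). Members printed in the same block of the array had a median r of 0.06, against -0.01 for members in other blocks.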

How the data were processed

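Blood miRNA was measured in 144 mice on custom multi-species arrays, 1 array per mouse, and groups were taken from the labels. Per the study's methods, the authors labelled the small RNA fraction with 1 dye, scanned the arrays and extracted spots (GenePix Pro 4.1.1.4 per the file headers). The deposited scanner values are foreground and local background median intensity per spot, not normalized. The deposited value table holds log2 normalized intensity and was used as an alternative. Each column was a constant away from the background-subtracted log2 scanner intensity. Scans used here also held 24 arrays that no label names, which were not analysed here.

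Background was corrected by normexp (offset 50, limma 3.58.1, R 4.3.3), spots flagged at or below -75 were left out, log2 values of the 3 spots were averaged and the 1262 mouse probes were quantile normalized. Quantile normalization gives all arrays the same distribution, so lower levels of some probes go with higher levels of others, and the offset makes fold changes of dim probes smaller. A probe was above threshold when it exceeded the 10% trimmed mean of 21 empty spots plus 5 SDs, a threshold that differs from that of the study. limma was fitted to 18 group means over 742 probes. Spread and correlations used deviations from group means, and the arrays that stood apart were those with a cluster 1 mean over 1 log2 unit below the median. Precision is limited by the number of arrays. The scripts were tested on simulated data.

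Members and lists were chosen with earlier results of these data known. In each month comparison 2 higher and 2 lower members were named, those called with the largest change or, failing that, of smallest p, and likewise the 2 of smallest p for the exposures, the 2 largest and 2 smallest SDs, and the extreme pairs. Mouse numbers only name samples. Lists of miRNA families and blood cell markers could not be looked up by probe identifier. Alternatives covered background, scaling, filter, slide, scan day, position, brightness and left-out arrays.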

Additional observations from a re-analysis of the deposited data

Results flagged for a closer look

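Among the 8 DM mice of a month, 1 mouse lay far from the others for 6 of the 60 combinations of a named probe and a month that were examined by Dixon's criterion, which chance meets in about 1 of 20. Probe ORB_0511571 was at 11.87 in mouse 2 of month 12, with the others between 12.80 and 13.53. Probe ORB1189 was at 10.91 in mouse 6 of month 1, with the others between 10.01 and 10.42. Probe ORB_1008002 was at 12.30 in mouse 2 of month 6, with the others between 11.03 and 11.59. Probe ORB_1112035 was at 11.54 in mouse 4 of month 6, with the others between 9.66 and 10.42. Probe ORB_0608068 was at 12.38 in the same mouse 4 of month 6, with the others between 10.53 and 11.15, and at 11.74 in mouse 8 of month 1, with the others between 10.33 and 10.74. Mice 2 and 4 of month 6 are 2 of the 10 arrays that stood apart.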

How the results depend on the processing

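Of the named members, every one of 524 recomputed month changes kept its direction, the smallest at 0.59 of its reported size. The call was lost in 31 of them and gained in 23. These members were picked by size or p in the same mice, and the alternatives share most of the arrays. Agreement in direction was therefore in part fixed by the choice. In the mean of 6 exposures, members called at month 12 against month 1 numbered 2 in place of 1 under the methods' background subtraction and trimmed-mean scaling, in the deposited table, with normexp and trimmed-mean scaling, with array position and with array brightness in the fit, and 1 to 5 when 1 exposure or scan day was left out. Month 6 against month 1 gave 2 with brightness in the fit and 0 to 1 when 1 exposure or scan day was left out, and month 12 against month 6 gave 0 to 1. With no fold limit these 3 comparisons gave 65, 67 and 16, and the DM comparisons 12, 12 and 1.

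In DM mice, month 12 against month 1 gave 4 to 8 when 1 mouse was left out. For month 6 against month 1 the 5 members became 9 under each of the 3 other scalings (4, 4 and 3 of them higher, in place of 4 of 5), 10 with scan day in the fit, 1 without mice 3 and 4 of month 6, 3 without the 10 arrays that stood apart (a setting chosen after seeing the data), and 2 to 10 when 1 mouse was left out. Month 12 against month 1 in DM mice gave 8 under each of the 3 scalings, 6 of them higher, in place of 7 with 4 higher. Exposure against DM gave 5 members with normexp and trimmed-mean scaling, all higher, and 0 otherwise. For the counts with the fold limit under the alternatives, the share of all probes called was not computed. Those counts are therefore not results about the members. With that scaling the 33 members that passed at month 12 against month 6 without a fold limit were 20 higher and 13 lower, in place of 7 and 9. Without a fold limit in DM mice it gave 6 of 10 higher at month 12 against month 1, in place of 9 of 12, and 8 of 27 at month 6, in place of 7 of 12. The trimmed-mean scalings moved the median of all probes at month 6 against month 1 by 0.22 log2 units in the mean of 6 exposures and by 0.30 to 0.36 in DM mice, in place of 0.00. The cause was not tested.

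The median SD of the members ranged from 0.32 to 0.42 over the alternatives. Their median pairwise r was -0.024 without the 10 arrays. With clusters rebuilt under each setting, the mean r within them in month 6 and 12 mice ranged from 0.59, with rank correlation (chosen after seeing the data), to 0.74. With the clusters kept as reported it ranged from 0.44, without the 10 arrays, to 0.73. No paired analysis was possible, because the mice of each month were separate animals with 1 array each. In addition, the labels give the mice no replicate numbers. Weak probes were limited by signal over background, which reached the threshold on all arrays for 128 of 129 members.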
